A study of Mus musculus with 6 samples.

Results

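The 10 genes described here encode the transcription factors and bridging proteins that run the red cell program: Gata1, Klf1, Tal1, Nfe2, Zfpm1, Gfi1b, Lmo2, Ldb1, Lyl1 and Bcl11a. They were taken by gene symbol, and all 10 were found among the 17060 genes listed in the tables. The cultures were started from lineage-negative BM cells of WT mice, a mixed fraction rich in stem and progenitor cells, and were grown in EPO medium, in which erythroid progenitors mature into erythroblasts. For 48 hours 3 cultures received DMSO, the vehicle, and 3 received NUP-17d, a small molecule made to inhibit pleckstrin-2 (Plek2). The mice carried no engineered allele, and the methods name C57BL/6 for the drug screen. The labels give no dose and do not say whether the cultures came from separate mice, so p-values measure the spread between these cultures.

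GATA1 binds DNA at WGATAR sites and FOG1, the product of Zfpm1, is its cofactor. TAL1 or its relative LYL1 pairs with an E protein on E-box DNA, and LMO2 and LDB1 tie that pair to GATA1 in one complex that loops enhancers to promoters of erythroid genes. KLF1 binds CACCC boxes in the same genes, NF-E2 p45 (Nfe2) acts as a pair with a small MAF protein, and GFI1B and BCL11A recruit corepressors. Several of these factors are also made by megakaryocytes and mast cells.

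Whether the cells hold erythroblasts was read from 10 erythroid markers, whose summed level was 166272 to 191906 CPM with DMSO and 94288 to 105437 CPM with NUP-17d (CPM, read counts set to a common library size with TMM factors). Most of that sum came from 2 globin genes, so it largely repeats the hemoglobin share given below. Hba-a1 had means of 76359 CPM with DMSO and 41811 CPM with NUP-17d, and Hbb-bs of 77814 and 42184 CPM. All 10 markers were lower with NUP-17d. The 10 neutrophil markers summed to 3942 to 4109 CPM with DMSO and to 4021 to 4301 CPM with NUP-17d, the 8 macrophage markers to 611 to 667 and 660 to 729 CPM, and the 6 lymphoid markers to 22.0 to 24.8 and 19.5 to 19.8 CPM. Hemoglobin genes took 18.3% to 20.3% of the reads with DMSO and 11.8% to 13.1% with NUP-17d, and the library totals were 20076409 to 20419018 estimated reads.

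The promoters of the factors are shown first because GATA and CACCC letters in them are what members of the complex bind. RefSeq's table of promoters on the GRCm38.p6 build, the assembly of the mm10 build named in the submitters' processing notes, held 11 windows for 8 of the 10 genes. Each window was read over the 250 bases before a transcript start. The windows of Gata1, Klf1, Gfi1b and the more upstream one of Tal1 are printed, Gata1 as the gene the complex is named for and the other 3 because they lie before the gene and hold a GATA match. Capitals mark matches on either strand to the letters GATA with A or T before them and A or G after them, and to CCNCNCCC (CACCC), with overlapping matches each counted. Gata1 lies at chrX:7967911-7968160 on the minus strand, Klf1 at chr8:84901732-84901927 on the plus strand, Gfi1b at chr2:28621983-28622232 on the minus strand and Tal1 at chr4:115056176-115056425 on the plus strand. The last 54 bases of the Klf1 window lie in an annotated exon and were left out, and the Gata1 window falls between exons of a longer gene model.
Gata1: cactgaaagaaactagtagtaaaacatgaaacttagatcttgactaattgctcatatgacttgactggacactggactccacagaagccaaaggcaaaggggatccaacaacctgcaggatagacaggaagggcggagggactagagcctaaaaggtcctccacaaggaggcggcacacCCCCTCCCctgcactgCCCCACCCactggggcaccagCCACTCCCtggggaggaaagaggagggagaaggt
Klf1: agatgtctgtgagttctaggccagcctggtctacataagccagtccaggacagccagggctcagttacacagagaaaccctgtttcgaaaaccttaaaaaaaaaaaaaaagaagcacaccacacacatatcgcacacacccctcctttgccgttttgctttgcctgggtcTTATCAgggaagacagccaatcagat
Gfi1b: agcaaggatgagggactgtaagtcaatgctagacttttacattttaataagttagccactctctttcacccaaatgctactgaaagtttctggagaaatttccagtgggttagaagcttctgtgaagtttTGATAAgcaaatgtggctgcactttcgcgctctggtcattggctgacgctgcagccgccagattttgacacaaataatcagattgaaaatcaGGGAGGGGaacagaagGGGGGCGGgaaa
Tal1: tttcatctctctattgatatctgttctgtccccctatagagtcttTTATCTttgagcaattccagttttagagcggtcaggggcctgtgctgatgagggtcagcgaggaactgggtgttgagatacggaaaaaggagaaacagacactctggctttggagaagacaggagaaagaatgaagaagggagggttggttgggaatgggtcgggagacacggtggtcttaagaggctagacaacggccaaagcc
GATA letters began 80 bases before the start of Klf1, 120 before that of Gfi1b and 205 before that of Tal1. The Gata1 window held none, and its 3 CACCC matches began 71, 55 and 34 bases before the start. Of the 11 windows, 4 held a GATA match, against 26.5% of the 32851 windows in the table. CACCC letters stood in 9 of the 11, against 45.9% of all windows. E-box letters (CAG and TG with A, G or C between them, either strand) stood in 2 of the 11, against 38.1%. Ldb1 and Tal1 gave more than 1 window each, so the windows are not separate genes. Some windows were rich in G and C, up to 76.0% in a window of Ldb1. The shares over all windows were not matched for that content. These are letter matches only and carry no measure of binding.

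Levels between genes can be compared on the FPKM scale, which divides reads by transcript length. In DMSO cultures Nfe2 had the highest level of the 10 at 513 ± 3.14 FPKM (SD, n = 3 cultures, as for all values below), and it ranked 118 among all listed genes by mean FPKM over the 6 libraries. Lmo2 followed at 257 ± 5.72, and then came Klf1 at 132 ± 2.54, Gata1 at 118 ± 1.65, Zfpm1 at 108 ± 3.22, Tal1 at 97.8 ± 1.58, Lyl1 at 80.7 ± 0.547, Gfi1b at 54.7 ± 1.02, Ldb1 at 45.6 ± 1.39 and Bcl11a at 30.8 ± 0.291 FPKM. The order was the same in each of the 3 DMSO cultures, and no neighbours in it had overlapping ranges. With NUP-17d the order was again the same in all 3 cultures and differed from that with DMSO at 1 place, where Zfpm1 (127 ± 2.86 FPKM) stood above Gata1 (113 ± 1.97 FPKM). The ranges of Klf1 and Zfpm1 came within 1 FPKM of each other there, with the lowest Klf1 culture at 130.8 and the highest Zfpm1 culture at 130.0. FPKM values are not corrected for library composition, so the level of a gene is not compared between the groups on this scale. In TMM-scaled CPM the means of Zfpm1 were 484 with DMSO and 471 with NUP-17d, and those of Gata1 were 248 and 197.

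**Figure D1:**
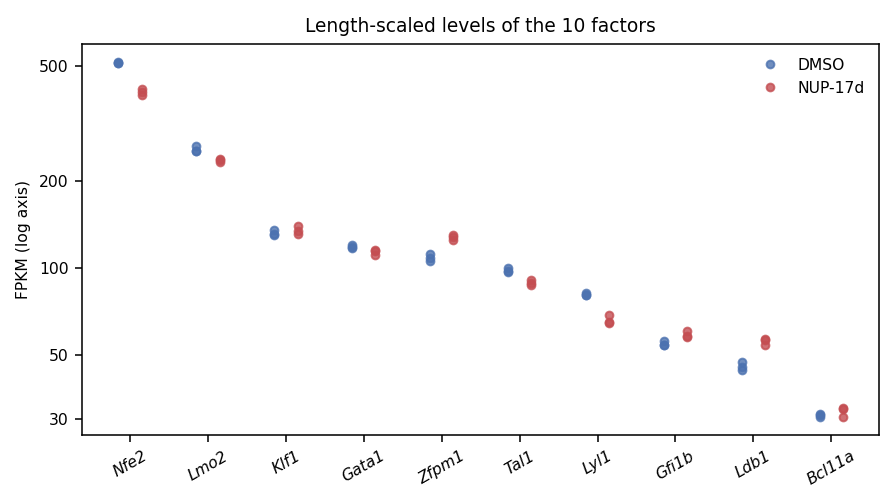
FPKM of the 10 factors on a log axis, with 1 point per culture (3 DMSO in blue, 3 NUP-17d in red) and genes ordered by their DMSO mean. Nfe2 stands highest and Bcl11a lowest in both groups, and Zfpm1 passes Gata1 only in the NUP-17d cultures. The scale is not corrected for library composition, so it orders genes within a group and does not compare the groups.

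Between the groups, 8 of the 10 genes fell with NUP-17d and none rose at an adjusted p of 0.05 (edgeR's quasi-likelihood test with TMM scaling, Benjamini-Hochberg over 12306 tested genes). Of all tested genes 18.9% were called lower and 16.4% higher. In 8 of the 10 every NUP-17d culture lay below every DMSO culture, as in 23.2% of tested genes. The median log2 fold change of the 10 was -0.29, against 0.014 over all tested genes. In bulk RNA, fewer cells of a type and less RNA per cell cannot be told apart.

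**Figure D2:**
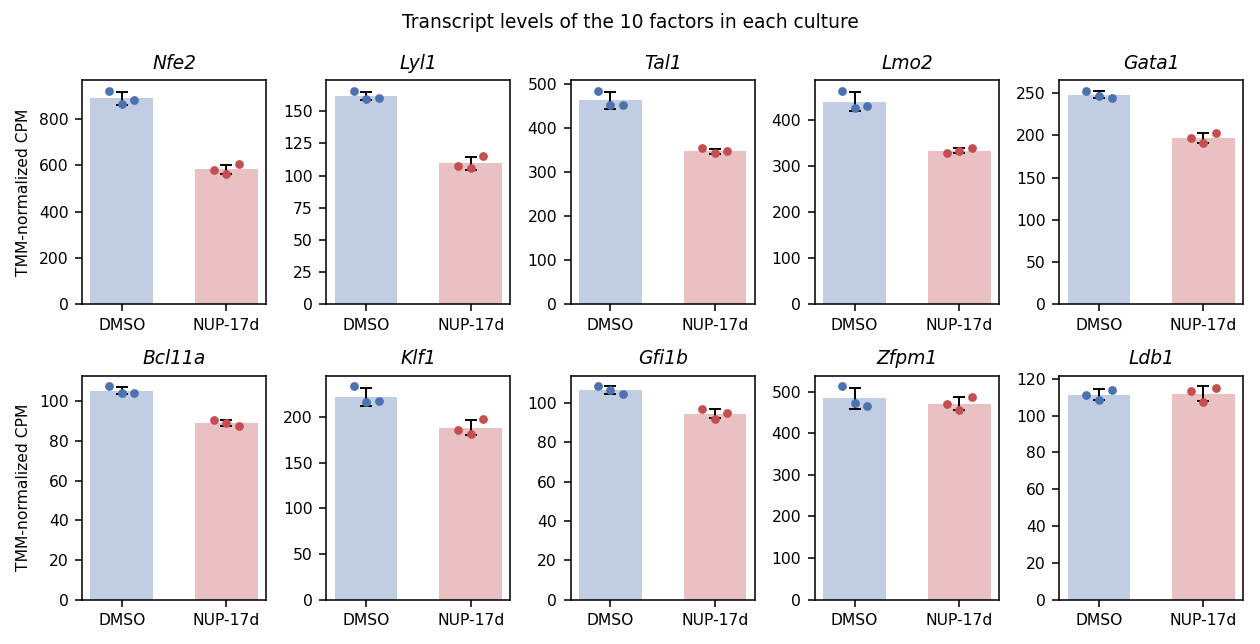
TMM-normalized CPM of each factor from the largest fall (Nfe2) to Ldb1, with bars for the mean, whiskers for the SD (n = 3) and a point per culture. The groups separate in 8 panels and overlap for Zfpm1 and Ldb1.

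Library scaling decides which of these calls hold. TMM scales each library so that most genes keep their level, whereas totals count every read. With library totals only, the median log2 fold change of all tested genes moved from 0.014 to 0.28, and every gene below moved with it. Under totals 4 of the 10 factors were called lower (Nfe2, Lyl1, Tal1 and Lmo2) against 5.34% of all tested genes, and 3 were called higher (Gfi1b, Zfpm1 and Ldb1) against 68.7%. The place of a gene among all genes is nearly free of this choice. Nfe2 had a lower fold change than all but 2.91% of tested genes with TMM and all but 2.93% with totals.

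**Figure D3:**
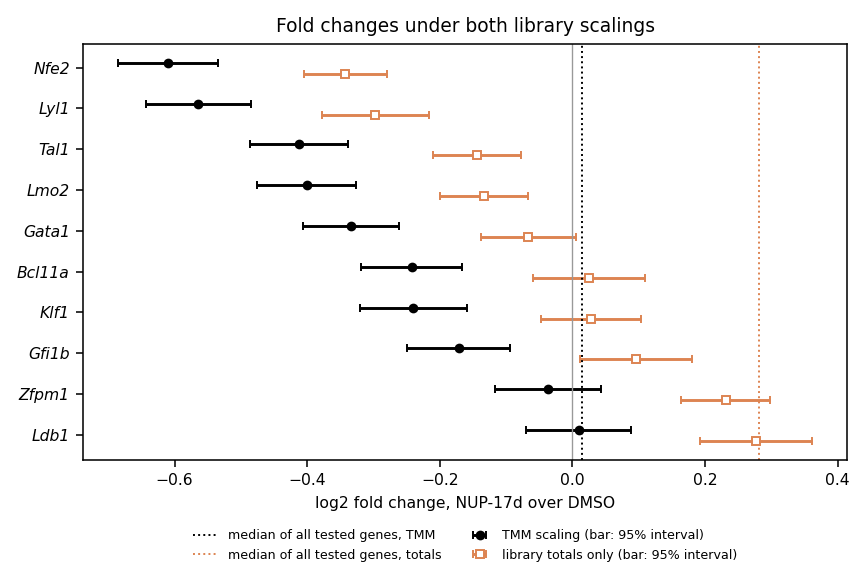
Log2 fold changes (NUP-17d over DMSO) with 95% intervals under TMM scaling (black) and under library totals only (orange), with dotted lines at the medians of all tested genes. The whole intervals of Nfe2, Lyl1, Tal1 and Lmo2 lie below 0 under both. The points of Gata1 do too, but its interval for totals reaches 0.0047. All 10 orange points lie below the orange line, Ldb1 only just (0.277 against 0.281). The orange intervals of Ldb1 (0.19 to 0.36) and Zfpm1 (0.16 to 0.30) span that line.

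Nfe2 (Entrez 18022, chr15:103248212-103258403), the p45 subunit of NF-E2, which binds regulatory elements of the globin loci, had 921, 865 and 882 CPM in the DMSO cultures. It had 581, 564 and 604 CPM in the NUP-17d cultures, all below the lowest DMSO value. It fell by 34.5%, a log2 fold change of -0.61 (SE 0.0365, adjusted p = 3.21e-13, edgeR), and by 0.34 on the log2 scale with totals. Its estimated counts were not whole in any of the 6 libraries, and how the counter arrived at fractions is not given in the sources used here.

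Lyl1 (Entrez 17095, chr8:84701423-84704716), the bHLH relative of TAL1, had 166, 159.8 and 160.1 CPM with DMSO and 107, 106 and 115 CPM with NUP-17d, again without overlap. Its log2 fold change was -0.56 (SE 0.0385, adjusted p = 4.50e-12, edgeR), and -0.30 with totals. The 95% intervals of Nfe2 (-0.69 to -0.53) and Lyl1 (-0.64 to -0.48) overlapped each other, and that of Nfe2 overlapped no other member's.

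Tal1 (Entrez 21349, chr4:115056426-115071755), the bHLH factor at the core of the complex, had 485, 453 and 453 CPM with DMSO and 354, 343 and 348 CPM with NUP-17d. Lmo2 (Entrez 16909, chr2:103957903-103981878), which bridges TAL1 to LDB1, had 462, 425 and 428 CPM with DMSO and 327, 331 and 338 CPM with NUP-17d. DMSO culture 1 was the highest of its group for both genes, and neither gene's groups overlapped. Their log2 fold changes were close, at -0.41 for Tal1 (adjusted p = 4.82e-10) and -0.40 for Lmo2 (adjusted p = 1.28e-09, both edgeR), and -0.14 and -0.13 with totals.

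Gata1 (Entrez 14460, chrX:7959260-7976663), the GATA factor of the lineage, had 253, 247 and 245 CPM with DMSO and 197, 191 and 202 CPM with NUP-17d. It fell by 20.7%, a log2 fold change of -0.33 (SE 0.0349, adjusted p = 1.65e-08, edgeR). With totals its log2 fold change was -0.067 (adjusted p = 0.0842, edgeR), which misses the threshold. By either scaling 8.30% of tested genes had a lower fold change than Gata1.

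Klf1 (Entrez 16596, chr8:84901982-84905291), the CACCC-box factor, had 233, 216 and 217 CPM with DMSO and 186, 181 and 197 CPM with NUP-17d. Its log2 fold change was -0.24 (SE 0.0392, adjusted p = 2.10e-05, edgeR), with a 95% interval from -0.32 to -0.16 that overlapped that of Gata1. With totals it was 0.028 (adjusted p = 0.495), so the direction rests on the scaling.

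Among the factors that recruit corepressors, Bcl11a (Entrez 14025, chr11:24076564-24173558), the silencer of embryonic globin genes, had 108, 104 and 104 CPM with DMSO and 90.5, 89.1 and 87.9 CPM with NUP-17d. Gfi1b (Entrez 14582, chr2:28609450-28621982), a zinc finger repressor, had 108, 106 and 105 CPM with DMSO and 96.7, 92.0 and 94.9 CPM with NUP-17d. The groups did not overlap for either gene. The estimated counts of Bcl11a were not whole in 4 of the 6 libraries. The log2 fold changes were -0.24 for Bcl11a (adjusted p = 8.38e-06) and -0.17 for Gfi1b (adjusted p = 0.000689, both edgeR), and both turned positive with totals, at 0.025 and 0.096, the latter called higher.

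The remaining pair did not pass the test under TMM. Zfpm1 (Entrez 22761, chr8:122281856-122337862), which encodes FOG1, had 513, 472 and 466 CPM with DMSO and 471, 456 and 488 CPM with NUP-17d. Its log2 fold change was -0.037 with a 95% interval from -0.12 to 0.042 (adjusted p = 0.489, edgeR). Ldb1 (Entrez 16825, chr19:46031525-46048145), the bridge that LMO2 holds, had 111, 108 and 114 CPM with DMSO and 113, 108 and 115 CPM with NUP-17d. Its log2 fold change was 0.0096, with an interval from -0.069 to 0.089 (adjusted p = 0.871, edgeR). Both sets of cultures overlapped. Ldb1 lay in the middle of all tested genes, 49.2% of which had a lower fold change, and Zfpm1 near it at 39.6%. With totals, both were called higher, by 0.23 and 0.28.

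Transcript length in the tables is an average over a gene's listed transcripts, so it moves when their estimated mix moves. It was a single value for Gata1, Klf1, Zfpm1 and Lyl1, which each have 1 listed transcript. For the other 6 the ranges of the groups overlapped. The widest spread was that of Bcl11a, at 3042 to 3141 bases with DMSO and 2995 to 3097 bases with NUP-17d.

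Ratios of FPKM values within a library need no scaling between libraries. In each of the 8 ratios taken, the ranges of the treated and vehicle cultures stayed apart. Each had p = 0.1 in a 2-sided exact permutation test, the smallest value that 3 cultures against 3 allow (0.1 after adjustment over the 8). The pairs were chosen with earlier results of these data known. How often other pairs of genes stay apart was not computed, so the count of 8 has no background beside it. The Gata1/Gata2 ratio, which rises as progenitors hand over from GATA2 to GATA1, was 5.26, 5.16 and 5.41 with DMSO and 3.96, 3.92 and 3.88 with NUP-17d. Gata1/Spi1, set against the myeloid factor PU.1, was 1.66, 1.65 and 1.53 with DMSO and 1.18, 1.13 and 1.21 with NUP-17d. Both ratios were therefore lower in all 3 NUP-17d cultures, by 25.8% and 27.3%. Klf1/Fli1, which sets the erythroid factor against a megakaryocyte factor, was 9.09, 7.33 and 7.48 with DMSO and 5.96, 5.72 and 6.62 with NUP-17d.

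Within the complex the proportions of the transcripts moved too. Lmo2/Ldb1 was 5.94, 5.59 and 5.37 with DMSO and 4.11, 4.40 and 4.19 with NUP-17d, lower by 24.8%. Zfpm1/Gata1 went the other way, from 0.955, 0.899 and 0.897 to 1.12, 1.12 and 1.13, so FOG1 transcripts were fewer per length than those of Gata1 in all DMSO cultures and more in all NUP-17d cultures. Tal1/Lyl1 was 1.24, 1.20 and 1.20 with DMSO and 1.40, 1.37 and 1.28 with NUP-17d. Nfe2/Bach1 was 16.5 ± 0.181 with DMSO and 14.7 ± 0.861 with NUP-17d, and Gfi1b/Gfi1 was 12.0 ± 0.480 and 11.1 ± 0.492.

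**Figure D4:**
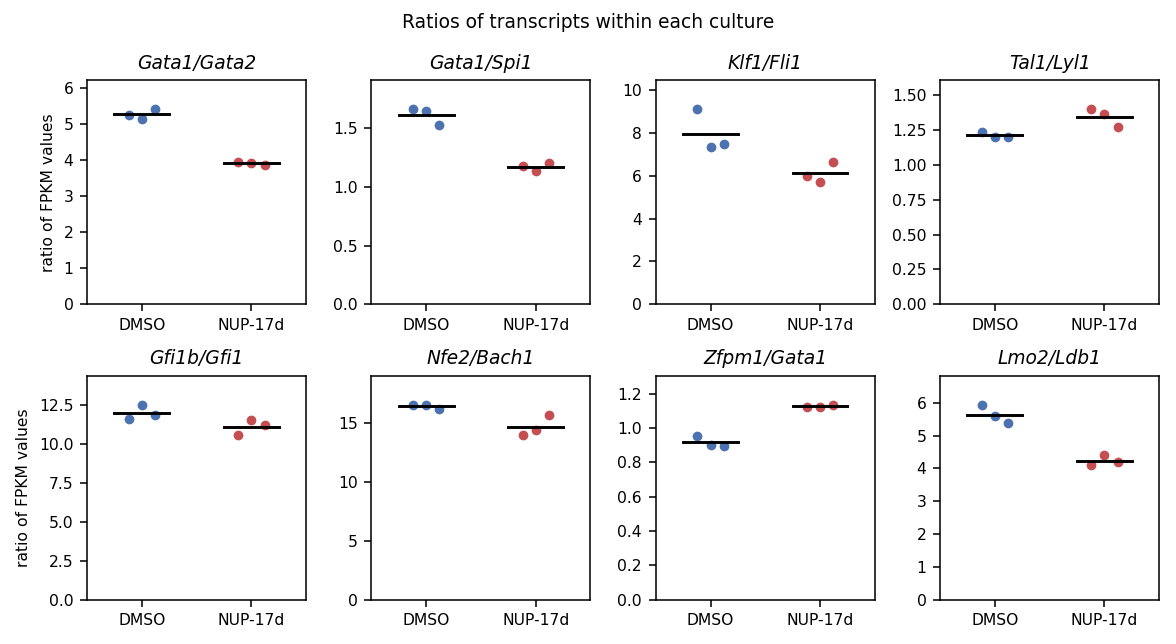
Ratios of FPKM values within each culture for the 8 pairs, with a point per culture, a line at the group mean and axes starting at 0. The groups do not overlap in any panel. Zfpm1/Gata1 and Tal1/Lyl1 are higher with NUP-17d and the other 6 are lower.

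The DNA-binding and bridging partners of the complex were followed as a list of 10 genes, the E proteins, the SSBP proteins that stabilise LDB1, the ETO family, Runx1 and Lmo4. Of these 4 fell and 2 rose with NUP-17d, and the median log2 fold change was 0.015, close to that of all tested genes. The shares of all tested genes with TMM, 18.9% lower and 16.4% higher, apply beside this count and those of the lists below. Cbfa2t3, which encodes ETO2, the corepressor carried by the TAL1 complex, had 558, 533 and 534 CPM with DMSO and 364, 354 and 360.5 CPM with NUP-17d. Its log2 fold change was -0.59 (adjusted p = 1.67e-13, edgeR), and -0.32 with totals. Ssbp2 (-0.35), Runx1 (-0.29) and Ssbp3 (-0.24) also fell, but none of these 3 was called with totals, where Ssbp3 was at 0.022. The E protein gene Tcf4 (0.23) and Ssbp4 (0.15) rose, Tcf4 from 30.3 ± 1.40 to 35.5 ± 0.495 CPM. Ssbp4 lost its call without DMSO culture 3 or NUP-17d culture 3 (edgeR adjusted p up to 0.101).

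The partners and competitors of NF-E2 moved with it in part. Of 6 genes, the small MAF genes, Bach1 and the NF-E2 related factors, 3 fell and none rose. Mafk, a small MAF that pairs with p45, had 421, 393 and 398 CPM with DMSO and 256, 258 and 272 CPM with NUP-17d. It fell by 0.63 on the log2 scale (adjusted p = 2.29e-13, edgeR) and by 0.36 with totals. Bach1, the heme-sensitive repressor that competes for the same small MAFs, had a log2 fold change of -0.45 and Mafg of -0.36, and both were also called lower with totals. Maff was near the lower end of what was tested, at 0.950 ± 0.186 and 1.39 ± 0.197 CPM (log2 fold change 0.54, adjusted p = 0.0964, edgeR).

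The corepressors that GFI1B, FOG1 and BCL11A recruit changed little. Of 15 genes of the CoREST and NuRD complexes and their relatives, 4 fell by small amounts and none rose, with a median log2 fold change of -0.044. They were Rbbp7 (-0.15), Hdac1 (-0.11), Rbbp4 (-0.11) and Mbd2 (-0.099), which encode histone binding, deacetylase and methyl-CpG binding subunits of NuRD. With totals none of the 15 was called lower and 14 were called higher, against 68.7% of all tested genes, so these directions rest on the scaling. Rbbp7 kept its call whichever culture was left out, and the other 3 lost theirs without 1 culture, Rbbp4 for 3 of the 6 (both DMSO culture 2 and 3 and NUP-17d culture 2), Hdac1 for 4 (all but DMSO culture 2 and NUP-17d culture 3) and Mbd2 for 5 (all but NUP-17d culture 1), with adjusted p up to 0.0711, 0.142 and 0.0714 (edgeR). Of 6 coactivators 4 fell, among them the acetyltransferase genes Ep300 (-0.28) and Crebbp (-0.27) and the Mediator gene Med1 (-0.10, adjusted p = 0.0496, edgeR), and none of the 6 was called lower with totals, where Med1 was at 0.17. Med1 lost its call without any culture but NUP-17d culture 1, with adjusted p up to 0.15 (edgeR).

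**Figure D5:**
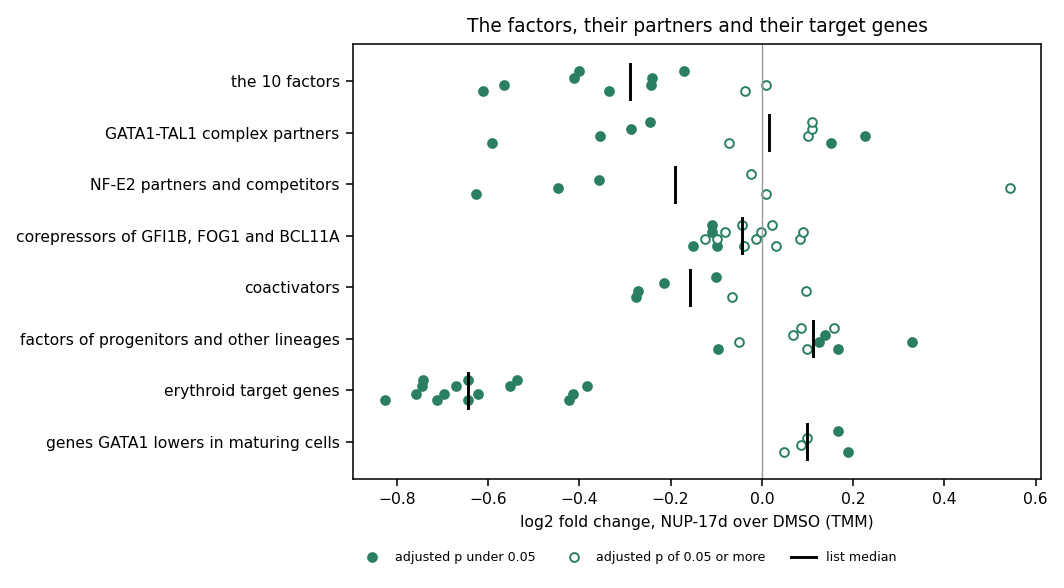
Log2 fold changes (TMM) of the 10 factors and of each list of partners, cofactors and targets, with 1 point per gene, filled where the adjusted p was under 0.05, and a black line at the list median. The target genes have the lowest median, -0.64, with all 15 at -0.38 or below, and the corepressors lie near 0.

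All 15 erythroid targets of GATA1, TAL1 and KLF1 on the list were called lower under both scalings. Of all tested genes 18.9% were called lower with TMM and 5.34% with totals. The median log2 fold change of the 15 was -0.64 with TMM and -0.38 with totals. This list, like the others, was chosen with earlier results of these data known. Of the 15, 15 had a lower fold change than Gata1 and 10 had a lower one than Nfe2, the member that fell most. Among those with the lowest p-values were Kel, a blood group protein gene (log2 fold change -0.74), Alas2, which encodes the first enzyme of heme synthesis in red cells (-0.76), and Epb42, which encodes a protein of the red cell membrane (-0.70). Of these targets 6 are also among the erythroid markers above. The summed erythroid markers moved with both the targets and the factors, and their part in either was not tested.

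Of 10 factors of progenitors and of other lineages 4 rose and 1 fell, with a median log2 fold change of 0.11. Cebpa, a granulocyte factor, had 106, 109 and 107 CPM with DMSO and 129, 141 and 135 CPM with NUP-17d (log2 fold change 0.33, adjusted p = 1.56e-07, edgeR). Hhex (0.17), Fli1 (0.14) and Spi1 (0.12) rose by less, and Ikzf1 fell (-0.096, adjusted p = 0.0434, edgeR). With totals all 10 of the list were called higher, against 68.7% of all tested genes. Of Cebpa, Hhex, Fli1, Spi1 and Ikzf1, Cebpa alone kept its TMM call whichever culture was left out. Spi1 lost it without DMSO culture 2, Hhex without DMSO culture 1 or 2 or NUP-17d culture 1, Fli1 without DMSO culture 1 or NUP-17d culture 1 or 2, and Ikzf1 without any but NUP-17d culture 1, with adjusted p up to 0.0714, 0.095, 0.231 and 0.16 (edgeR). Gata2 went from 79.8 ± 2.69 to 85.4 ± 2.53 CPM and missed the threshold (log2 fold change 0.098, adjusted p = 0.0605, edgeR). Of 5 genes that GATA1 lowers as cells mature, 3 of them on the list before (Gata2, Myb and Hhex), 2 rose, Hhex and the stem cell factor receptor gene Kit (0.19), and none fell.

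Megakaryocytes and mast cells use several of the same factors, so their markers are given beside them. Of 10 megakaryocyte markers 7 rose and 1, Gp6, fell, and their sum was 486 to 535 CPM with DMSO and 563 to 583 CPM with NUP-17d. Of 8 mast cell and basophil markers 6 were tested, of which 3 fell and 1 rose, with sums of 234 to 252 and 207 to 214 CPM. With totals 0 of these 6 were called lower and 2 higher, so their falls rest on the scaling. Of the megakaryocyte markers 1 was called lower and 9 higher with totals, against 68.7% of all tested genes called higher. No marker of either list was at 0 in any library, and Tpsb2 and Cma1 were below 0.2 CPM in all 6. Their part in the values of the 10 factors was not tested.

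The genes whose pattern over the 6 libraries was most like that of Gata1 (Pearson correlation of log2 CPM among 8456 genes with a mean of at least 10 CPM) were Serinc3, Cdc6, Ints6l, Cmas and Derl1, with r from 0.9986 to 0.9993. For Klf1 they were Armc1, Sec14l1, Rbm4, Abtb1 and Blvrb, with r from 0.9955 to 0.9976. Such values are a description, since the difference between the groups and a shared scaling enter every gene of a library.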

How the data were processed

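Bulk poly(A) RNA-seq of 6 mouse cultures was used, 3 per condition. For every gene the authors deposited an expected count, which is an estimated number of reads that need not be whole, an FPKM value (reads scaled by transcript length and library total) and a mean transcript length. The submitters' processing notes name mm10, and the aligner and counter are not given in the sources used here. A gene with no line in a library was set to 0. Expected counts were rounded to whole numbers, filtered with edgeR's filterByExpr and tested with edgeR 4.0.16 (quasi-likelihood, TMM), with Benjamini-Hochberg adjustment over 12306 genes at 0.05. Intervals are 95% intervals of the fitted fold change. Ratios of FPKM values were tested with 2-sided exact permutation tests (SciPy 1.17.1). Alternatives were DESeq2 1.42.0, library totals, RLE factors, no filter, hemoglobin genes removed, limma 3.58.1 on logged FPKM values (pseudocounts of 1 and of 0.1, genes averaging 1 FPKM or more), the replicate number as a block, and each culture left out. On simulated counts, with 200 genes changed up or down at random, edgeR's recovery of changed genes was checked. The simulation held no shift in library composition like that of the real data, so it does not bear on the choice of scaling.

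Library totals were 20076409 to 20419018 expected counts, and each factor had 1917 to 16662 in every library. Named were all 10 factors, up to 4 genes with the lowest p-values of each list plus those that account for a small count, both genes of each ratio, and the 5 genes most like Gata1 and Klf1. Tpsb2 and Cma1 were named after their values were seen. The factors and lists were chosen with earlier results of these data known. The values of 2 list genes that this rule names are not reported here.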

Additional observations from a re-analysis of the deposited data

How the results depend on the processing

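The calls of all 10 factors, 8 lower and 2 neither, held under DESeq2, RLE factors, no filter on low counts, removal of the hemoglobin genes, and without any 1 culture. With library totals only, and in both limma fits on log2(FPKM + 1) and log2(FPKM + 0.1), 4 factors were lower and 3 higher, since these settings do not correct for library composition. The log2 fold change turned positive under totals, FPKM + 1 and FPKM + 0.1, in that order, for Bcl11a (0.025, 0.0442 and 0.0454), Gfi1 (0.217, 0.174 and 0.205), Gfi1b (0.0958, 0.0975 and 0.0991), Hdac1 (0.157, 0.158 and 0.161), Ikzf1 (0.171, 0.168 and 0.173), Klf1 (0.0277, 0.0312 and 0.0314), Mbd2 (0.168, 0.169 and 0.171), Med1 (0.166, 0.159 and 0.168), Rbbp4 (0.159, 0.16 and 0.163), Rbbp7 (0.115, 0.118 and 0.12), Ssbp3 (0.0219, 0.00691 and 0.00706) and Zfpm1 (0.231, 0.233 and 0.235). In the same 3 settings 1 partner of the complex was called lower and 6 higher, 0 corepressors lower and 14 higher, 0 coactivators lower and 3 higher, 0 factors of progenitors and other lineages lower and 10 higher, and 5 of the genes that GATA1 lowers higher. Of the NF-E2 partners and competitors 3 were called higher with totals and 2 in each FPKM fit. DESeq2 called 1 partner of the complex, 2 factors of progenitors and other lineages and 1 gene that GATA1 lowers higher, and 0 factors of progenitors and other lineages lower. Without the filter on low counts 0 factors of progenitors and other lineages were also lower. Leaving out 1 culture gave 1 to 2 partners of the complex higher, 1 to 4 corepressors lower and 0 to 1 higher, 0 to 1 coactivators higher, 0 to 1 factors of progenitors and other lineages lower and 2 to 4 higher, and 1 to 3 genes that GATA1 lowers higher. All 56 repeats of the ratios kept their direction, which leaving out a culture could not reverse because the groups did not overlap. Over all tested genes 2327 were lower and 2019 higher, against 1809 and 1162 with DESeq2, 657 and 8458 with totals, and 599 and 7895 with FPKM + 1. The cause of changes under DESeq2, no filter or a left-out culture was not tested.

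The labels do not say whether same-numbered cultures were paired. Deviations from the group means correlated between same-numbered cultures at 0.0566, -0.00461 and -0.00317, against a mean of -0.00813 between different numbers. Taking deviations from group means ties these values to each other, so they cannot decide whether the cultures were paired. With the replicate number as a block 8 factors were called lower and 0 higher, 1 coactivator was called higher, and 2422 genes were lower and 2121 higher.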
